A study of Mus musculus with 10 samples.

Results

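The genes described here encode the enzymes that place or remove methyl groups on histone lysines and on DNA. The group was given as a list of 41 mouse symbols, and all 41 were found once each among the 41813 genes of the expression tables. They comprised 22 methyltransferases ("writers"), 16 demethylases and TET dioxygenases ("erasers"), 2 non-catalytic PRC2 subunits (Eed and Suz12) and Kmt2e, a KMT2 relative with no established methyltransferase activity. The series measured mouse bone marrow-derived dendritic cells, recorded as CD11c+ with high MHC class II. Per the design text all cells received lipopolysaccharide (LPS) and were then cultured for 24 h with CD4+ OT-II T cells, whose receptor recognises the ovalbumin peptide OVA323-339. The activated group had been pulsed with that peptide and the non-activated group had not. The sample labels instead record LPS stimulation for the activated samples and none for the others, so the titles' words activated and non-activated are used. Strain, age and animal of origin were not given in the sources used here. RNA was sequenced in 3 activated and 3 non-activated libraries. Another 4 samples, labelled as ATAC-seq, were not analysed here.

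Lysine methylation on histone H3 acts through proteins that read each mark. Methylation of lysine 4 (H3K4) marks active promoters and enhancers, methylation of lysine 36 (H3K36) marks transcribed gene bodies, and methylation of lysines 9 and 27 (H3K9 and H3K27) marks silenced chromatin. Writers take the methyl group from S-adenosylmethionine, whereas the JmjC demethylases and the TET enzymes need oxygen, iron and alpha-ketoglutarate. In dendritic cells and macrophages these enzymes are known for setting which inflammatory genes can be induced.

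Libraries held 21338012 to 27404937 expected counts each. Markers of dendritic cells were present throughout. Over the 6 libraries the class II gene H2-Ab1 stood at 2190 to 3300 CPM (each count relative to the library's total, scaled by TMM factors). Cd74 stood at 5400 to 8520 CPM. Of 11 dendritic cell markers 5 were higher in activated cells and 0 lower (edgeR adjusted p under 0.05), where 15.9% and 11.7% of all genes were. Those higher were Ccr7 (2.82-fold), Irf4 (2.46-fold), Zbtb46, Cd86 and Ciita. The 6 that did not pass had log2 fold changes from -0.37 (H2-Aa) to -0.01 (Flt3). The mitochondrial share of counts was lower in each activated library (1.80% to 2.12%) than in any non-activated one (2.20% to 2.56%). The part of both in the results below was not tested. The libraries expressed the Y-linked genes Ddx3y (73.4 to 109 CPM) and Uty (24.6 to 29.3 CPM). Both replicate 1 libraries stood apart by a T cell receptor transcript: the 2 held 7420 (activated) and 7440 CPM (non-activated) of Trac, against 2.73 to 27.8 CPM in the other 4 libraries. Trbc2 followed the same split, at 107 and 106 CPM against 0.504 to 1.88 CPM. The T cell gene Cd3e stayed between 0.152 and 1.9 CPM in all 6. Results are therefore also given without the 2 replicate 1 libraries where the call differed. The labels do not tie a replicate to an animal or a culture. The p-values below therefore measure the spread between these libraries, which may be technical.

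Nearly all of the enzymes were measured well. Every one of the 41 passed the filter on low counts, 39 had at least 100 counts in each library, and 34 had a mean of at least 10 TPM (the deposited share of all transcripts, corrected for transcript length) in both groups. Per length, the H3K9 and H3K36 demethylase Kdm4a had the highest level in non-activated cells, at 187 ± 31.8 TPM (SD, n = 3), followed by the H3K9 dimethyltransferase Ehmt2 at 122 ± 8.35, the de novo DNA methyltransferase Dnmt3a at 107 ± 50.4 and the PRC2 subunit Eed at 103 ± 5.77 TPM. The Kdm4a libraries (157 to 220 TPM) lay above those of Ehmt2 (113 to 128). The Dnmt3a libraries (66.8 to 164) overlapped those of Kdm4a, Ehmt2 and Eed, and Eed stood clear of the next gene, Ezh1, at 67.7 ± 3.36 TPM. At the other end were Tet1 at 0.197 ± 0.185 TPM and the second de novo DNA methyltransferase Dnmt3b at 0.867 ± 0.211 TPM. The median enzyme was at 26.4 TPM in non-activated cells. Summed over the 41 genes, the level was 1338.8, 1359.0 and 1452.7 TPM in activated replicates 1 to 3 and 1466.1, 1531.6 and 1603.6 TPM in the non-activated ones. Those sums did not overlap, but they did once Kdm4a was left out (1178.7 to 1297.4 against 1283.0 to 1383.5 TPM) or Dnmt3a was (1255.2 to 1390.7 against 1368.0 to 1512.9 TPM).

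**Figure D1:**
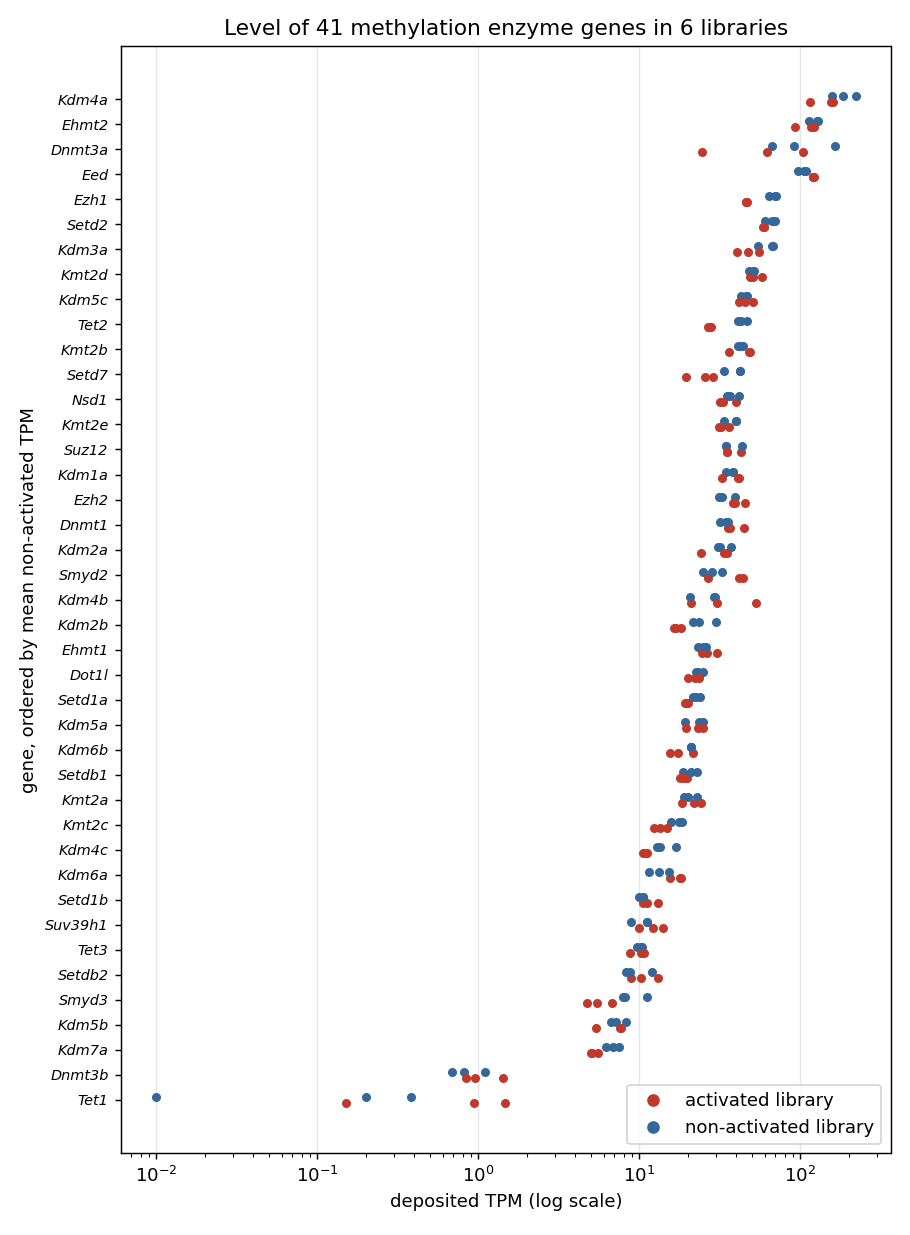
Deposited TPM (log axis) of each of the 41 genes in each library, 3 activated (red) and 3 non-activated (blue), ordered from the bottom by the non-activated mean. Most genes lie between 10 and 100 TPM, Kdm4a leads, and Tet1 and Dnmt3b sit apart at the low end.

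In activated cells the RNA of 8 of the 41 enzymes was lower and that of 0 was higher. The 8 were the demethylases Kdm2b, Kdm4c and Kdm7a, the methyltransferases Ezh1, Kmt2c, Setd7 and Smyd3, and the DNA dioxygenase Tet2. The ratio of activated to non-activated level ran from 0.569 (Smyd3) to 0.795 (Kmt2c), and 5 of the 8 changed by less than 1.5-fold. The test was edgeR's quasi-likelihood test over 13946 genes with Benjamini-Hochberg adjustment and a threshold of 0.05. Over all genes 11.7% were lower and 15.9% higher by the same rule, against 19.5% of the enzymes lower (8 of 41). The median log2 fold change was -0.05 over the enzymes and 0.01 over all genes tested. At an unadjusted p under 0.05 in edgeR, 8 enzymes were lower and 4 higher (Eed, Setdb2, Dnmt1 and Tet1), and DESeq2 and limma on log2 TPM called 0 higher after adjustment. With the replicate number as a block, edgeR called 12 lower and 5 higher, as described further on. The 12 genes with an unadjusted edgeR p under 0.05 without the block were the ones whose libraries did not overlap between groups. Of these 8 were lower and 4 higher, where 20.7% and 23.9% of all genes were lower and higher without overlap. In bulk RNA, fewer cells of a type and less RNA per cell cannot be told apart.

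**Figure D2:**
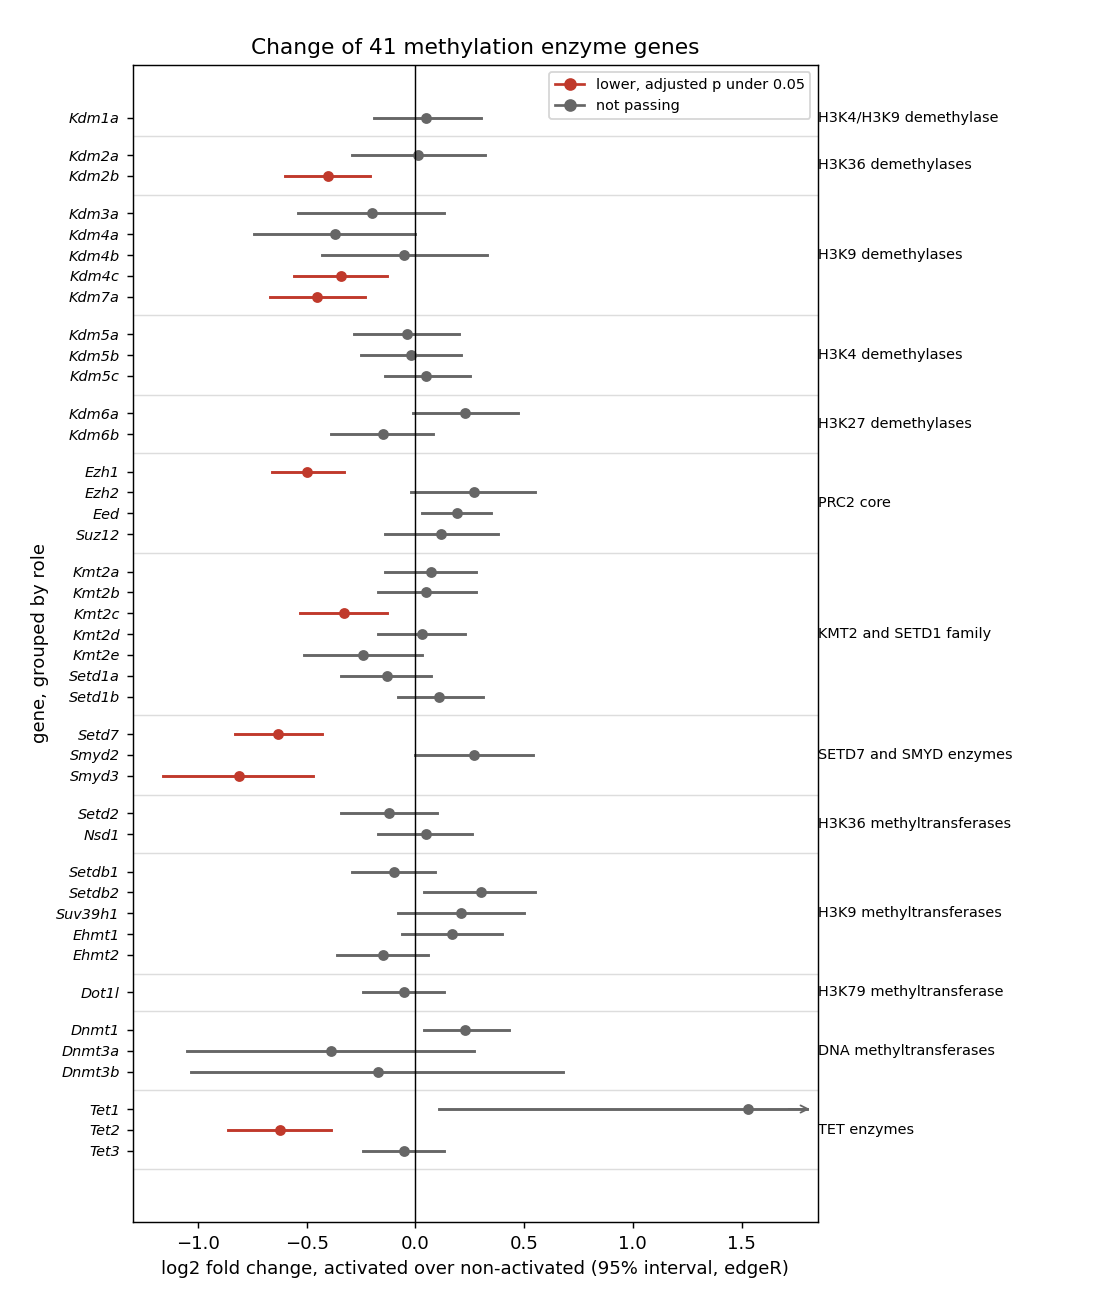
Log2 fold change of each enzyme, activated over non-activated, with its 95% interval from the quasi-likelihood fit, grouped by role. The 8 genes that passed (red) lie to the left of 0, from -0.33 for Kmt2c to -0.81 for Smyd3, and the interval of Tet1 runs past the right edge to 2.96.

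Of these 8, Setd7, Ezh1 and Tet2 passed under each of the 16 alternative settings tried. Setd7 is a monomethyltransferase of H3K4 and of many non-histone proteins, and its gene spans chr3:51515318-51560823 (RefSeq, GRCm38.p6). It was at 92.0, 109 and 98.5 CPM in activated replicates 1 to 3 and at 146, 154 and 163 CPM in non-activated ones. The groups did not overlap, and the fitted ratio was 0.647 (95% interval 0.563 to 0.744, log2 -0.63 ± 0.09, SE; edgeR adjusted p = 0.00129). Ezh1, at chr11:101191115-101226463, encodes the PRC2 H3K27 methyltransferase that prevails in non-dividing cells. Its levels were 123, 116 and 114 CPM in activated and 168, 169 and 162 CPM in non-activated cells (log2 -0.50 ± 0.07, SE; edgeR adjusted p = 0.00144). Tet2, at chr3:133463677-133545136, oxidises 5-methylcytosine and is the TET enzyme best known in myeloid cells. Activated libraries held 115, 97.6 and 112 CPM of Tet2 and non-activated ones 186, 150 and 163 CPM, again without overlap (log2 -0.62 ± 0.10, SE; edgeR adjusted p = 0.00301).

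The stretches before the start sites of these 3 genes are shown because CG dinucleotides, in capitals, are the letters on which the DNMT and TET enzymes act, and they show how CpG-rich the promoters of these genes are. Each is the 250 bases before a RefSeq start on GRCm38.p6, minus strand, written 5′ to 3′ (Setd7 at chr3:51560824-51561073, Ezh1 at chr11:101226464-101226713, Tet2 at chr3:133544391-133544640). For Tet2 that start is an internal one, so its window lies within the gene span given above; it is the 1 start used here.
Setd7: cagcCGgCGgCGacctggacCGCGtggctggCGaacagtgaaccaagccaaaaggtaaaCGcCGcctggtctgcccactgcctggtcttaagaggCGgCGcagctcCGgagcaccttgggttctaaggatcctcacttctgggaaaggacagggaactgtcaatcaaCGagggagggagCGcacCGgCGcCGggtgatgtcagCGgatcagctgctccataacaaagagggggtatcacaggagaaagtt
Ezh1: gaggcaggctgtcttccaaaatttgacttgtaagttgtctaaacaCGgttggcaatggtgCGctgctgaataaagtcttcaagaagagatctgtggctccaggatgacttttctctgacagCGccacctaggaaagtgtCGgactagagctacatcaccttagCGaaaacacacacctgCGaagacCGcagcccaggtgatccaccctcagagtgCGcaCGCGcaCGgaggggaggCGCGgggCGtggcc
Tet2: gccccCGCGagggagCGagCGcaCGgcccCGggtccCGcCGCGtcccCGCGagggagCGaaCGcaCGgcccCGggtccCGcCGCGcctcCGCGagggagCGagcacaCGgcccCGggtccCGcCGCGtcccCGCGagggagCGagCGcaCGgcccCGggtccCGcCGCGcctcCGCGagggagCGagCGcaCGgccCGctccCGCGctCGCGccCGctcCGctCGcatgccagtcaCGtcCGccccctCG
Setd7 and Ezh1 carried 17 and 14 CG dinucleotides, and Tet2 carried 51. The Tet2 window holds a tandem repeat: shifted by 42 bases against itself, 77.9% of its overlapping bases matched, and no shift from 10 to 125 bases that was not a multiple of this gave over 48.1%. Their observed-to-expected CpG ratios were 0.755, 0.738 and 1.19. RefSeq windows were found for 32 of the 41 genes (44 windows, some genes having several). An observed-to-expected ratio of at least 0.6 was reached by 86.4% of these windows, compared with 34.0% of all 32851 windows in the table, which include many non-coding genes. It was reached by 10 of 11 windows of the lower genes and by 28 of 33 windows of the other enzymes. The GC box GGGCGG, searched on both strands, occurred in 65.9% of the enzyme windows and 32.7% of all windows. CCAAT occurred in 31.8% and 33.8%. The E-box CACGTG occurred in 11.4% and 6.02%, the ETS pattern CCGGAAG in 9.09% and 6.91%, and TATAAA in 0 of the 44 windows and 12.4%. These matches describe letters only.

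The other 5 lower genes were less firm. Smyd3, a SET and MYND domain methyltransferase, gave the lowest ratio of all at 0.569, from 6.54, 5.35 and 6.21 CPM in activated and 10.3, 9.62 and 11.9 CPM in non-activated cells (log2 -0.81 ± 0.15, SE; edgeR adjusted p = 0.00495). It was also the scarcest of the 8, with 437 against 794 summed counts, and it missed the threshold without the replicate 3 libraries (0.0641) and on deposited TPM (limma adjusted p = 0.0639; 0.000228 to 0.0641 over the alternatives). Kdm2b, an H3K36 demethylase that binds unmethylated CpG islands and recruits a PRC1 complex there, was at 46.2, 40.5 and 42.1 against 56.3, 53.4 and 60.7 CPM (log2 -0.40 ± 0.09, SE; edgeR adjusted p = 0.00908). Its call was lost without both replicate 2 (edgeR adjusted p = 0.0598) or both replicate 3 libraries (0.114; from 0.00226 upwards over the alternatives). The groups of both genes did not overlap. Kdm7a, a demethylase of H3K9 and H3K27, stood at 31.0, 31.5 and 32.3 against 48.6, 39.7 and 41.2 CPM (log2 -0.45 ± 0.10, SE; edgeR adjusted p = 0.00918), and missed the threshold without the replicate 3 libraries (0.069) and on TPM (limma adjusted p = 0.127; 0.00158 to 0.13 over the alternatives).

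Kdm4c and Kmt2c had the highest adjusted p of the 8. Kdm4c, an H3K9 and H3K36 demethylase, was at 30.9, 30.4 and 27.6 CPM in activated and 37.9, 34.2 and 40.7 CPM in non-activated cells (edgeR adjusted p = 0.0282), and passed in 7 of 16 alternatives (adjusted p 0.0187 to 0.222 over all). Kmt2c, an enhancer H3K4 monomethyltransferase, was at 85.7, 77.1 and 90.4 against 112, 99.2 and 107 CPM (edgeR adjusted p = 0.0256), and passed in 8 of 16 (0.00589 to 0.103). Both lost the call without the replicate 1 libraries that stood apart by Trac, at edgeR adjusted p of 0.056 for Kdm4c and 0.0708 for Kmt2c. Their log2 fold changes there were -0.39 and -0.32, against -0.34 and -0.33 with all libraries, on 2 against 2 libraries. Leaving those libraries out gave 6 lower and 0 higher enzymes.

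**Figure D3:**
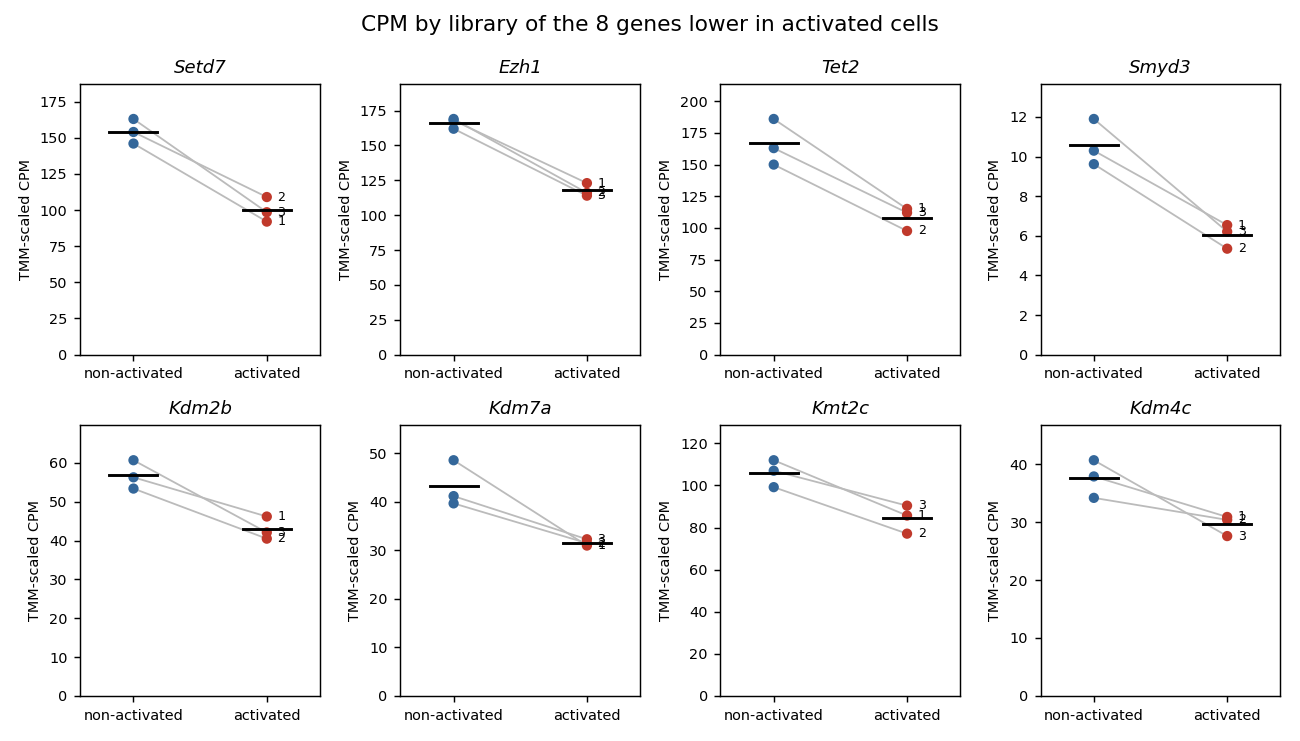
TMM-scaled CPM of the 8 genes that passed, by library, with lines joining libraries of the same replicate number, the number beside each activated point and black bars for group means. In each panel the 3 activated libraries lie below the 3 non-activated ones.

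Cells of other types were sought beside these results. Macrophage markers were lower in 2 of 8 (Fcgr1 among them), with summed levels of 1290 to 1840 CPM in activated and 1480 to 1830 CPM in non-activated libraries. Of the 5 mast cell and basophil markers Kit and Gata2 were lower, and the list summed to 26.6 to 45.3 CPM against 79.5 to 91.5 CPM. The defining mast cell and basophil genes Cpa3, Mcpt8 and Ms4a2 were at or near 0, at most 0.52 CPM in any library. Among 18 T cell markers Cd247, Lck and Zap70 were higher and Icos lower. Without Trac and Trbc2, left out after their values were seen, the T cell list summed to 39.8 to 64.8 CPM in activated and 42.8 to 63.4 CPM in non-activated libraries. B cell, NK cell and neutrophil lists summed to at most 5.84, 0.855 and 0.568 CPM. The B cell gene Cd79b was higher, at 1.96 against 0.134 CPM (edgeR adjusted p = 0.00304). The part of these markers in the results for the enzymes was not tested.

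In PRC2, which writes H3K27 methylation, Ezh1 was lower and its catalytic paralogue Ezh2 did not pass. Ezh2, the form typical of dividing cells, was at 49.0, 43.5 and 35.1 CPM in activated and 35.3, 37.6 and 33.3 CPM in non-activated cells. Its groups overlapped and the difference did not pass (log2 0.27, 95% interval -0.02 to 0.55; edgeR adjusted p = 0.15), except without activated replicate 3, its lowest activated library (0.0371; up to 0.519 over the alternatives). Within a library the log2 ratio of Ezh1 to Ezh2 TPM was 0.04, 0.26 and 0.21 in activated and 0.97, 0.83 and 1.14 in non-activated cells. Ezh1 was thus 1.97 times as abundant as Ezh2 per length in non-activated cells and 1.13 times in activated ones. The log2 ratio differed by -0.81, several times its SD of 0.12 and 0.16. An exact two-sided permutation test over the 6 libraries gave p = 0.1, the smallest possible with 3 against 3 (adjusted p = 0.167 over the 5 ratios tested). The subunits Eed, which reads H3K27me3, and Suz12 did not pass. Eed stood at 64.5, 62.2 and 61.2 against 56.4, 53.9 and 54.0 CPM, without overlap but with an edgeR adjusted p of 0.0722, and Suz12 at 105 against 96.5 CPM (0.467). The summed TPM of the 4 core genes was 245.0 ± 8.3 in activated and 243.3 ± 7.8 in non-activated cells (SD, n = 3). Genes of dividing cells gave 4 of 17 higher (Mki67, Mcm3, Mcm5 and Tyms) and 3 lower (Top2a, Mcm6 and Mcm7) and summed to 270 to 319 against 276 to 294 CPM, and their part in the Ezh2 values was not tested.

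Beside Kdm7a, which acts on both H3K9 and H3K27, the dedicated H3K27 demethylases Kdm6a and Kdm6b did not pass. Kdm6a (UTX), X-linked, was at 44.4, 35.7 and 38.0 CPM in activated and 35.9, 31.4 and 33.2 CPM in non-activated cells (log2 0.23, 95% interval -0.01 to 0.47; edgeR adjusted p = 0.134). Kdm6b (JMJD3), known as an LPS-inducible gene in macrophages, was at 84.3, 69.1 and 68.3 against 85.8, 83.9 and 77.1 CPM (log2 -0.15, 95% interval -0.39 to 0.08; edgeR adjusted p = 0.298). Activated replicate 1 was the highest of the activated libraries for both genes. Without it Kdm6b passed as lower (edgeR adjusted p = 0.0384; up to 0.691 over the alternatives). The log2 ratio of Kdm6b to Kdm6a TPM was 0.07 ± 0.17 in activated and 0.67 ± 0.21 in non-activated cells (SD, n = 3), and the groups did not overlap (exact permutation p = 0.1, adjusted 0.167). On TMM-scaled CPM that difference shrank from -0.59 to -0.39.

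**Figure D4:**
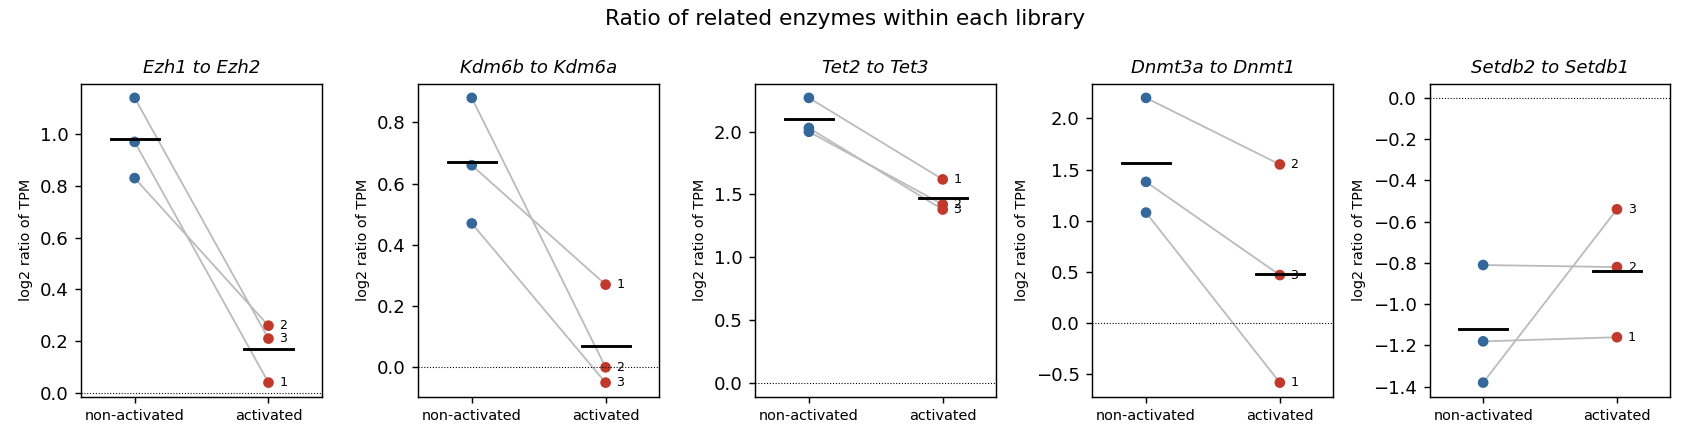
Log2 ratio of TPM between related enzymes in each library, with lines joining the same replicate number and black bars for group means. The ratios of Ezh1 to Ezh2, Kdm6b to Kdm6a and Tet2 to Tet3 are lower in each activated library than in any non-activated one, whereas the Dnmt3a to Dnmt1 and Setdb2 to Setdb1 ratios overlap.

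Among those of the 41 that act on H3K4, none passed beside Kmt2c, Setd7 and Smyd3. The large KMT2 and SETD1 enzymes Kmt2a, Kmt2b, Kmt2d, Setd1a and Setd1b, the catalytic cores of COMPASS complexes, had log2 fold changes between -0.13 and 0.11, and none passed. Kmt2d, the paralogue of Kmt2c, was at 283, 284 and 326 CPM in activated and 300, 277 and 299 CPM in non-activated cells (95% interval of the log2 fold change -0.17 to 0.23). The H3K4 demethylases Kdm5a, Kdm5b and Kdm5c, which remove the promoter mark, had log2 fold changes of -0.04, -0.02 and 0.05, and Kdm1a (LSD1), the amine oxidase that needs flavin instead of alpha-ketoglutarate, 0.05. Kdm5d, the Y-linked paralogue of Kdm5c, was lower at 26.3 against 32.8 CPM (edgeR adjusted p = 0.0436), and whether its change differed from that of Kdm5c was not tested. Of the other Y-linked genes Ddx3y was also lower (0.769 times, edgeR adjusted p = 0.0149), Eif2s3y was at 46.7 against 56.5 CPM (0.236) and Uty at 26.2 against 28.6 CPM (0.32). Xist, from the X chromosome, was at 2.07 against 0.302 CPM (edgeR adjusted p = 0.0868), with overlapping groups. Activated replicate 1 held 4.83 CPM of Xist, the other activated libraries 0.392 and 0.98, and the non-activated ones 0.419, 0 and 0.487. The part of these genes in the Kdm5d result was not tested. Smyd2, a relative of Smyd3 that methylates H3K36 and non-histone proteins, was at 25.5, 31.9 and 30.4 against 21.7, 26.8 and 24.4 CPM (log2 0.27; edgeR adjusted p = 0.13), with overlapping groups. Kmt2e was at 118 against 140 CPM (edgeR adjusted p = 0.17).

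On H3K9, 0 of 5 writers and 2 of 5 JmjC erasers passed, where 27.6% of all genes were called in either direction, and nothing is read from these small counts. The methyltransferases Setdb1, Setdb2, Suv39h1, Ehmt1 and Ehmt2 had log2 fold changes from -0.15 (Ehmt2) to 0.30 (Setdb2). Setdb2, reported as an interferon-inducible member, was at 15.2, 15.5 and 14.5 CPM in activated and 13.4, 12.2 and 11.2 CPM in non-activated cells, without overlap (edgeR adjusted p = 0.0816). Its TPM ratio to Setdb1 did overlap between groups (exact permutation p = 0.3). Of the H3K9 demethylases Kdm4c and Kdm7a were lower as given above. Kdm4a, the most abundant enzyme, was at 478, 325 and 425 against 541, 444 and 597 CPM (log2 -0.37, 95% interval -0.74 to 0.00; edgeR adjusted p = 0.128). Activated replicate 1 lay above non-activated replicate 2, so the groups overlapped. Kdm3a was at 120, 86.6 and 115 against 141, 105 and 124 CPM (edgeR adjusted p = 0.345). Kdm4b was at 49.2 against 51.0 CPM (0.853), and its TPM in activated replicate 2, 53.1 against 20.6 to 30.2 in the other 5 libraries, followed a weighted transcript length of 1302 bases there against 3017 to 3403 elsewhere.

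The H3K36 writers Setd2 and Nsd1 and the H3K79 writer Dot1l did not pass. Setd2, the main enzyme for H3K36 trimethylation, had a log2 fold change of -0.12 (95% interval -0.34 to 0.10), Nsd1, an H3K36 dimethyltransferase, of 0.05 (-0.17 to 0.26), and Dot1l, the only known H3K79 methyltransferase, of -0.05 (-0.24 to 0.13). The H3K36 demethylase Kdm2a, paralogue of Kdm2b, was at 129, 95.3 and 126 CPM in activated and 123, 101 and 123 CPM in non-activated cells (log2 0.01 ± 0.13, SE; edgeR adjusted p = 0.952). Replicate 2 was the low library in both groups.

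Of the 3 DNA methyltransferases and 3 TET enzymes, Tet2 alone passed. Dnmt1, the maintenance methyltransferase, was at 122, 117 and 135 CPM in activated and 105, 112 and 100 CPM in non-activated cells. Its groups did not overlap, but it missed the threshold (log2 0.23 ± 0.09, SE; edgeR adjusted p = 0.0768). Dnmt3a varied more between replicates than between groups, at 66.3, 140 and 102 CPM in activated and 103, 185 and 115 CPM in non-activated replicates 1 to 3 (log2 -0.39, 95% interval -1.05 to 0.27; edgeR adjusted p = 0.36). Replicate 2 was the highest and replicate 1 the lowest in both groups. The antisense gene Dnmt3aos lies within its span, and without stranded counting their reads cannot be told apart. The weighted length of Dnmt3a was 4035, 2140 and 2680 bases in activated and 2361, 1846 and 2142 bases in non-activated replicates 1 to 3, in the reverse order of its CPM within each group. On TPM it ranged from 24.5 in activated replicate 1 to 164 in non-activated replicate 2. Dnmt3b was at 1.78 against 2.02 CPM, with a wide interval (log2 -1.03 to 0.68) on 132 and 150 summed counts.

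Tet1 and Tet3 did not pass. Tet3 was at 60.1, 68.5 and 68.8 CPM in activated and 69.2, 69.6 and 66.0 CPM in non-activated cells (log2 -0.05, 95% interval -0.24 to 0.13). The log2 ratio of Tet2 to Tet3 TPM was 1.62, 1.42 and 1.38 in activated and 2.27, 2.00 and 2.03 in non-activated libraries, so Tet2 was 2.78 times as abundant as Tet3 per length in activated and 4.29 times in non-activated cells (exact permutation p = 0.1, the smallest possible, adjusted 0.167). Tet1 was barely detected, with 48 counts summed over the activated and 17 over the non-activated libraries (0.483, 0.54 and 0.98 against 0.152, 0.084 and 0.446 CPM). The groups did not overlap, but the fold change was imprecise (log2 1.53, 95% interval 0.11 to 2.96; edgeR adjusted p = 0.104).

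For most enzymes that did not pass, the 95% interval was narrow. The intervals rest on the spread between these libraries, which may be technical, and on the fit without the replicate block. Some of these genes passed with that block, as given below. Of the 33, 29 had a 95% interval within 1.5-fold either way, and 13 had one within 0.32 either way on the log2 scale. The 4 exceptions at 1.5-fold were Kdm4a, Dnmt3a, Dnmt3b and Tet1. Counting the genes that passed too, 31 of 41 enzymes (75.6%) had an interval within 1.5-fold, as had 42.8% of all genes tested.

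Sample titles give both groups the replicate numbers 1 to 3, and libraries with the same number deviated together from their group means, with correlations of 0.57, 0.57 and 0.30 over genes. With the replicate number as a block, edgeR called 12 enzymes lower and 5 higher, where 17.2% and 20.0% of all genes were lower and higher. The 8 genes above passed again. Added as lower were Kdm3a (adjusted p = 0.0439), Kdm4a (0.00944), Kmt2e (0.0232) and Dnmt3a (0.0104). Added as higher were Kdm6a (0.0346), Eed (0.0433), Smyd2 (0.0245), Setdb2 (0.0492) and Tet1 (0.0406). For Dnmt3a the log2 difference within pairs 1 to 3 was -0.63, -0.41 and -0.17, and for Kdm4a -0.18, -0.45 and -0.49. Eed gave 0.19, 0.20 and 0.18, the narrowest spread among these 9. Over the other alternatives their adjusted p reached 0.29 (Eed) to 0.853 (Dnmt3a), and Tet1 also passed without non-activated replicate 3. In all 3 pairs 16 of the 41 enzymes were lower and 10 higher, against 31.1% and 33.0% of all genes tested.

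**Figure D5:**
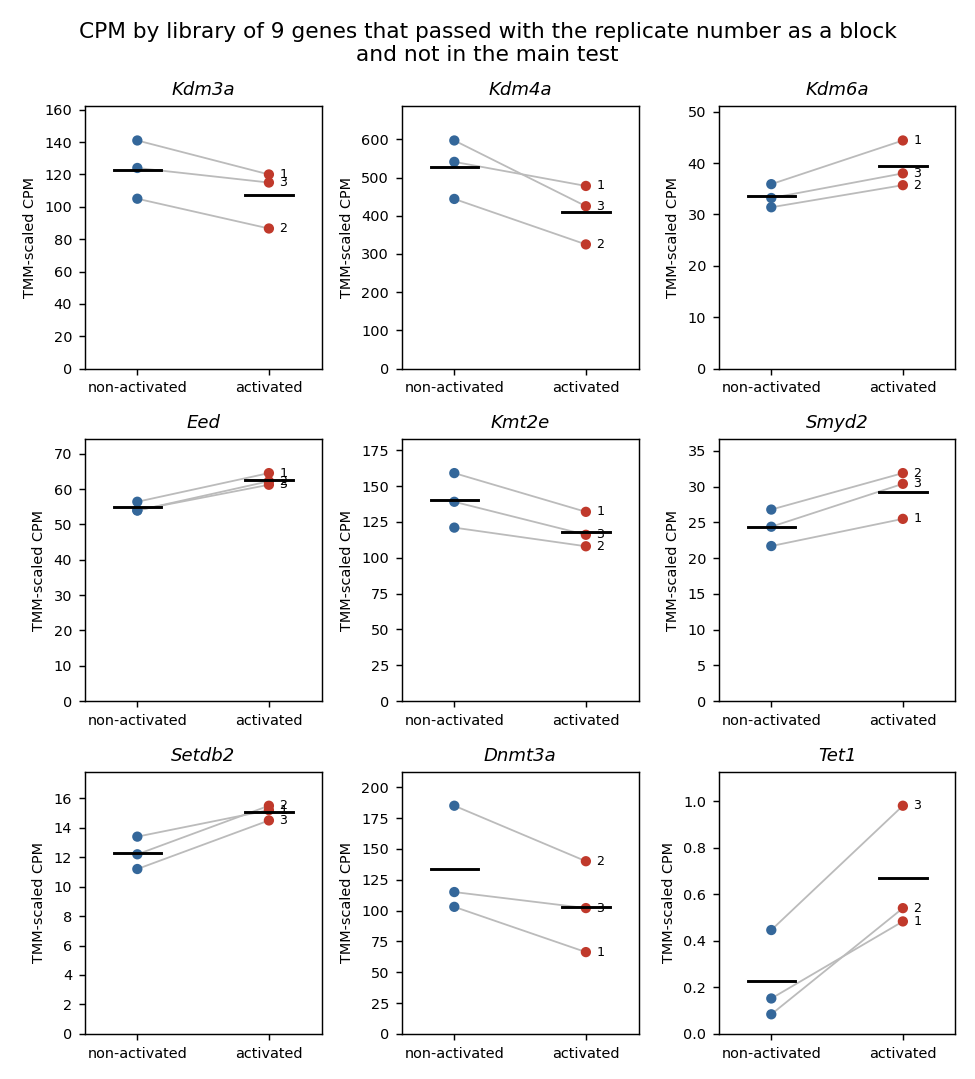
TMM-scaled CPM of the 9 genes that passed with the replicate number as a block and not without it, with lines joining libraries of the same number and black bars for group means. Within each panel all 3 lines slope the same way, while for Dnmt3a, Kdm3a, Kdm4a, Kmt2e, Kdm6a and Smyd2 the groups overlap.

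The length that the deposited tables give a gene is the mean of its transcript lengths weighted by their estimated share, so it moves when the mix of transcripts moves. All 41 enzymes had several annotated transcripts. None differed in weighted length between groups in limma (adjusted p at least 0.594), while 4 had an unadjusted p under 0.05 (Dnmt3b, Kdm7a, Dot1l and Kdm3a) and 0.0467% of all 10718 genes tested passed. Kdm3a had 3814, 3287 and 3337 bases in activated and 3139, 3024 and 3079 bases in non-activated replicates 1 to 3. Dnmt3b had 2885, 2314 and 2370 against 3157, 4154 and 3600 bases, on 132 and 150 summed counts.

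Genes that work with these enzymes moved both ways. Of 12 tested further lysine demethylases 2 were higher and 2 lower. Kdm1b (LSD2), the paralogue of Kdm1a, was higher at 56.1 against 24.5 CPM (log2 1.19 ± 0.12, SE; edgeR adjusted p = 0.000229), a size that no member of the 41 with over 100 counts per library reached. Hr rose from 1.72 to 5.70 CPM, and Jmjd1c and Kdm5d were lower. Of 17 tested further lysine methyltransferases 2 were higher (Prdm16 and, outside the naming rule, Smyd5) and 3 lower, the lower ones being Nsd3, Setd3 and Nsd2 (0.698, 0.822 and 0.817 times the non-activated level). Accessory PRC2 and PRC1 subunits gave 7 of 26 higher and 4 lower, with the PRC1 chromobox gene Cbx7 lower (16.4 against 33.1 CPM), and the PRC2 recruiter Mtf2 (1.46-fold) and Rybp (1.71-fold) higher.

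COMPASS subunits gave 0 of 13 higher and 2 lower, Paxip1 and Ncoa6 (0.780 and 0.789 times), both of the complex that holds Kmt2c and Kmt2d. Arginine methyltransferases gave 2 of 8 higher, Prmt1 (1.46-fold) and Prmt2, and 0 lower. Partners and readers of DNA methylation gave 4 of 18 higher and 3 lower. Uhrf1, which brings Dnmt1 to newly copied DNA, was higher at 17.3 against 7.65 CPM, whereas its relative Uhrf2 was lower at 89.0 against 134 CPM and the demethylation-linked Gadd45g at 35.1 against 91.7 CPM. Enzymes of the methyl donor and of cosubstrates gave 2 of 13 higher and 2 lower, with Ahcyl2 (0.584 times) at the smallest adjusted p. Methyl-lysine readers and corepressors gave 1 of 19 higher (Rcor2) and 2 lower (Rcor3 and Ing5). These lists together are read against 27.6% of all genes called in either direction, and nothing is called particular to any of them.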

How the data were processed

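The RNA libraries (NEBNext Ultra, 200 ng input, single reads of 60 nt) were described in the labels' protocols. The authors deposited gene tables in the RSEM layout, per the file headers: expected counts, TPM, FPKM (not used), lengths and effective lengths. GRCm38 is named in the submitters' processing notes, whereas the names of the RNA tables carry a human build; their gene IDs are mouse Ensembl IDs and were taken as such. No RNA aligner or strand setting is given. Ensembl IDs gave 41597 genes a symbol. Coordinates and promoter windows come from RefSeq (GRCm38.p6).

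Rounded expected counts went into edgeR 4.0.16 (R 4.3.3; filterByExpr, TMM, glmQLFit, glmQLFTest, group as the only term, Benjamini-Hochberg). SE was taken as the absolute log2 fold change over the root of F. Weighted lengths were tested with limma 3.58.1 on log2 values. Alternatives were RLE factors, other filters, DESeq2 1.42.0, limma on log2(TPM + 1) and log2(TPM + 0.1), a replicate block, and left-out libraries. The code was tested on simulated data.

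Same-numbered libraries correlated above 0.1 in each of 3 pairs, so the numbers were taken to pair the samples from the data alone, their meaning being unstated. With strand unstated, 22 of the 41 genes share sequence span with another RefSeq gene. The 41 genes, the lists and the tests were chosen with earlier results of these data known. All 41 are accounted for, with full values for those that passed or whose call changed; of each other list at most 4 genes by adjusted p were to be named, with exceptions stated or of 5 or fewer calls. NRF1, CRE, kappaB and interferon response patterns were also searched and are not reported. Some genes of these lists are counted but not reported here by name.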

Additional observations from a re-analysis of the deposited data

How the results depend on the processing

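No enzyme was called lower in 1 run and higher in another. Log2 fold changes of some enzymes that did not pass changed sign, as for Kdm4b (-0.2 to 0.31 over the alternatives) and Dnmt3b (-0.83 to 0.27). The 8 lower enzymes numbered 8 with RLE factors, without a low-count filter, with at least 1 CPM in 3 libraries and in DESeq2. They numbered 4 on log2(TPM + 1), 4 on log2(TPM + 0.1) and 12 with the replicate block. With libraries left out they numbered 3 to 9: 5 without both replicate 2 and 3 without both replicate 3 libraries. Enzymes higher went from 0 to 5 with the replicate block and were 0 to 1 with libraries left out (Ezh2 without activated replicate 3, Tet1 without non-activated replicate 3). Tet1 has no value with at least 1 CPM in 3 libraries. Over all genes, 600 to 1673 were lower and 1185 to 1956 higher with libraries left out, against 1632 and 2216. The largest drops were without replicate 3 (600 and 1185) and replicate 2 (775 and 1277), and 1061 were lower without non-activated replicate 2. Genes called by weighted length went from 5 to 0 with the replicate block and were 0 to 12 with libraries left out, with 0 enzymes in each. The Kdm6b to Kdm6a difference was -0.39 on CPM. Of the enzymes that did not pass, 13 had intervals within 0.32 on the log2 scale, 30 within 2-fold, and with the replicate block 23 of those not passing there were within 1.5-fold. Leaving out libraries also reduces the number tested; the cause of the other changes was not tested. Counts of 17 to 150 per group limit Tet1 and Dnmt3b.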
